A study of Homo sapiens with 9 samples.

Results

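This report describes ribosome biogenesis genes in MKN45 gastric cancer cells, with 38 genes named as members for their known work in making ribosomes: transcribing ribosomal RNA, modifying and cutting it, and assembling the 40S and 60S subunits. The members were named by function, but with earlier results of these data known. The annotation of the arrays listed a probe for 35 of them, and 34 passed the filter on dim probes and were tested, out of 16180 genes tested in all. WDR43, GNL3 and EBNA1BP2 had no listed probe, and their expression was not analysed here. NPM1, the nucleolar chaperone nucleophosmin, had 1 listed probe, whose mean of 6.15 log2 units lay under the filter at 6.18, so it was left out of the tests. The expression counts below therefore cover 34 members and not the whole set.

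Ribosomes are built in the nucleolus. RNA polymerase I copies the ribosomal DNA into a long precursor RNA, small nucleolar ribonucleoproteins (snoRNPs) methylate and pseudouridylate it, and a succession of assembly factors folds and cuts it while ribosomal proteins bind. Growing cells raise this output, and the transcription factor MYC is known for activating many of the genes involved, often through the E-box CACGTG near their start sites.

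MKN45 is an established human gastric cancer line, and the study used 9 single-colour bead arrays of its total RNA, 3 for each of 3 groups. Cells labelled YAP-S127A carried a vector for YAP with serine replaced by alanine at a site that Hippo pathway kinases phosphorylate, control vector cells carried a vector without it, and the third group was labelled mock. How the vectors were delivered, which promoter drove YAP, when RNA was taken and whether cells were a clone or a pool was not stated in the labels. Replicates are not said to be independent cultures, and every p-value here is therefore relative to the variation among these arrays, possibly only technical variation.

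The median probe signal before normalization ran from 107 to 136 intensity units over the 9 arrays, with YAP-S127A array 3 at 107 and vector array 2 at 109. All 11 gastric epithelial markers were tested, with a median of 13.04 log2 units. Of 14 markers of fibroblasts, leukocytes and endothelial cells 9 passed the filter, and apart from LYZ, which gastric cells also make, none averaged above 6.95. The only YAP1 probe failed the filter, at 6.08, and differed by 0.08 from vector and by 0.04 from mock, so it does not check the labels. All levels are normalized log2 intensities, a probe's level cannot be set against that of another probe, and bulk arrays cannot tell fewer cells of a kind from less RNA per cell.

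The members were mostly a little higher in YAP-S127A cells. Against vector 1 of 34 rose and 0 fell (limma over all genes, Benjamini-Hochberg adjusted p under 0.05), where 1.76% of all genes tested rose, 1.7% fell and 3.45% changed in either direction. Against mock 5 of 34 rose and 0 fell, where 2.18% of all genes rose, 2.07% fell and 4.25% changed in either direction. The member that rose against vector, LYAR, also rose against mock, and 1.34% of all genes rose against both. The median member difference was 0.10 log2 units against vector and 0.16 against mock, where the medians of all genes were −0.01 and 0.00. At an unadjusted p under 0.05, 6 members were higher and 0 lower against vector, and 11 were higher and 0 lower against mock. Of all genes 15.6% passed that threshold against vector (1183 higher and 1343 lower) and 17.0% against mock (1363 higher and 1393 lower), where 17.6% and 32.4% of the members did. On all 3 YAP-S127A arrays 8 members lay above all 6 control arrays, where 5.62% of all genes did, and 0 lay below them, where 5.64% of all genes did. All 3 lay above the 3 vector arrays in 10 members, where 10.6% of all genes did. The comparisons with vector and with mock share the YAP-S127A arrays.

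LYAR, a nucleolar zinc finger protein that binds pre-ribosomes, had log2 levels of 10.89, 10.83 and 10.70 on the YAP-S127A arrays, against 10.51, 10.42 and 10.07 on the vector arrays and 10.13, 10.50 and 10.33 on the mock arrays. Every YAP-S127A array lay above every control array. The rise was 0.47 ± 0.12 log2 units (SE, n = 3 arrays per group) or 1.39-fold against vector (limma, adjusted p = 0.0306) and 0.48 ± 0.12 or 1.40-fold against mock (adjusted p = 0.0237). Its dimmer probe differed by 0.38 and 0.48. Before normalization the separation was not there: the signals of the brightest probe were 1952, 1912 and 1444 intensity units in YAP-S127A cells, against 1766, 1173 and 1122 in vector cells and 1111, 1692 and 1439 in mock cells, with YAP-S127A array 3 and vector array 2 the dimmest arrays as a whole.

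NOLC1, which escorts snoRNPs between the nucleolus and Cajal bodies, stood at 9.49, 9.50 and 9.33 in YAP-S127A cells, against 9.07, 9.05 and 9.31 in vector cells and 8.87, 9.02 and 9.03 in mock cells. It rose by 0.47 ± 0.11 (1.38-fold) against mock (limma, adjusted p = 0.0115), and differed by 0.30 from vector without passing (adjusted p = 0.145). The groups did not overlap, but YAP-S127A array 3 lay only just above vector array 3. NCL, the abundant nucleolar RNA-binding protein nucleolin, had levels of 12.83, 13.03 and 12.96 in YAP-S127A cells, against 12.81, 12.70 and 12.81 in vector cells and 12.48, 12.66 and 12.48 in mock cells. It rose by 0.40 ± 0.10 against mock (limma, adjusted p = 0.0264) and differed by 0.16 from vector (adjusted p = 0.481), while the vector cells themselves stood 0.24 above mock. The vector arrays lay between the other groups. On its dimmer probe NCL differed by 0.22 from mock and 0.14 from vector, and the groups overlapped. With its probes averaged NCL was not called against mock (limma, adjusted p = 0.118).

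BYSL, or bystin, a factor of 40S maturation, had levels of 9.70, 9.75 and 9.51 in YAP-S127A cells, against 9.43, 9.32 and 9.03 in vector cells and 8.88, 9.23 and 9.41 in mock cells. All YAP-S127A arrays lay above the controls, whose own range was wide. The rise against mock was 0.48 ± 0.13 (limma, adjusted p = 0.0368) and the difference from vector 0.39 (adjusted p = 0.108). RRP12, needed for the maturation and export of pre-ribosomes in yeast, had 9.12, 9.43 and 8.92 in YAP-S127A cells, against 8.93, 8.75 and 8.83 in vector cells and 8.59, 8.78 and 8.67 in mock cells. YAP-S127A array 3 fell within the vector range. RRP12 rose by 0.47 ± 0.12 against mock (limma, adjusted p = 0.0219) and differed by 0.32 from vector (adjusted p = 0.159).

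**Figure D1:**
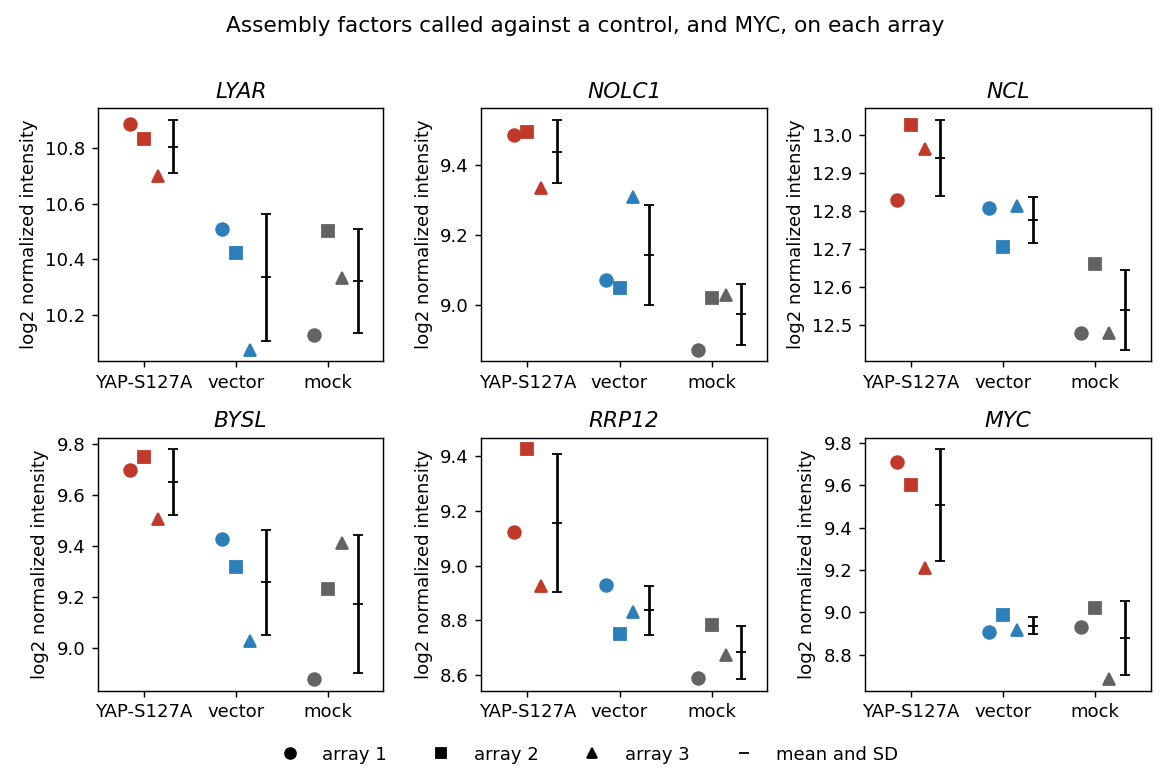
Log2 normalized intensity of the 5 members called against a control, and of MYC, on each of the 9 arrays. Marker shapes give the array number, and the black bars the mean and SD of 3 arrays. LYAR, NOLC1, NCL, BYSL and MYC lie higher on every YAP-S127A array than on any control array, and RRP12 on array 3 does not.

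Single arrays decided many of these calls. Against vector, LYAR was not called without YAP-S127A array 1 or 2 or vector array 2 or 3 (adjusted p up to 0.225). Against mock, 0 of 34 members were called without YAP-S127A array 2, 0 without mock array 1 and only NCL without YAP-S127A array 1, whereas 7 were called without YAP-S127A array 3. With arrays scaled to equal medians or with a background offset of 16, 0 members were called against either control.

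The promoters of LYAR and BYSL are shown because both genes rose and both hold the E-box CACGTG, given in capitals, and those of RRP9 and NOP2 because they are the next members holding it by difference from mock. Each runs from 250 bases before to 50 bases after the annotated start of transcription, on the strand of the gene (RefSeq, GRCh38.p14). The stretches are chr4:4289972-4290271 on the minus strand for LYAR, chr6:41921249-41921548 on the plus strand for BYSL, chr3:51941855-51942154 on the minus strand for RRP9 and chr12:6568242-6568541 on the minus strand for NOP2. Counted from the start of transcription, the E-box begins at −64 in LYAR, 29 in BYSL, −5 in RRP9 and 36 in NOP2. LYAR has a further annotated start whose promoter does not hold it.
LYAR: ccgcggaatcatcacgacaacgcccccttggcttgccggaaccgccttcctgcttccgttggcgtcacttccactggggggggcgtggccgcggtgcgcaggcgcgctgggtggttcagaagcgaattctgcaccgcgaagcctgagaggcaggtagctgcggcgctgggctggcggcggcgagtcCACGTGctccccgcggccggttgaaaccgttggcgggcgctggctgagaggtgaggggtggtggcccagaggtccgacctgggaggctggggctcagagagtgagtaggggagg
BYSL: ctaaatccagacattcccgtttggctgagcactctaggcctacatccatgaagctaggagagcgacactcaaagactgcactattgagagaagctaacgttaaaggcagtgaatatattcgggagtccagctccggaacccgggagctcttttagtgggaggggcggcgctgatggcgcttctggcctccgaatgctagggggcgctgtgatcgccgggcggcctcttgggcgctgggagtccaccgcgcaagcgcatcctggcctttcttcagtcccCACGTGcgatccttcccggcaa
RRP9: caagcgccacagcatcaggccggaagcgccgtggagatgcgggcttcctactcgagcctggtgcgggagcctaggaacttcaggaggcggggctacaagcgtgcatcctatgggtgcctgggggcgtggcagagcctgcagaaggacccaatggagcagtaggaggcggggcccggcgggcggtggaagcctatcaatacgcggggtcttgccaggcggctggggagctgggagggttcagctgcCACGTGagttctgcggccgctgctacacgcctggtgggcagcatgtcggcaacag
NOP2: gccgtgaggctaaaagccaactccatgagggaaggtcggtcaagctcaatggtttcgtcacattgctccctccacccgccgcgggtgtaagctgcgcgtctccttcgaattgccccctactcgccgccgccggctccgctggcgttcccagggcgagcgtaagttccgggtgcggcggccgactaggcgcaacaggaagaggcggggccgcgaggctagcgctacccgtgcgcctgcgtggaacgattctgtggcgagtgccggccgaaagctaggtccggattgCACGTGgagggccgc

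Of the 38 members 33 had a promoter in the table used, and 13 of these (39.4%) held CACGTG in at least 1 promoter. They include WDR43, GNL3 and EBNA1BP2, whose expression was not tested, and among tested members it was 10 of 29 (34.5%). This letter string is the same on both strands. It was found for 11.5% of the tested genes that had a promoter, and in 7.26% of all 35116 promoters of this length. Among tested members with a promoter in the table, it was found for 0 of 5 in RNA polymerase I, 4 of 8 snoRNP and scaffold genes, 3 of 8 40S factors and 3 of 8 60S factors. GGAATG, the core that TEAD factors, the DNA-binding partners of YAP, are known to bind, was searched on both strands (GGAATG or CATTCC) and stood in the promoters of 6 of 29 tested members (20.7%), against 15.1% of tested genes. NCL held neither string in its promoter window. A match describes these letters only.

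Taken by role, the snoRNP proteins and nucleolar scaffolds held 3 of the 5 calls. Of 10 tested, 1 rose against vector and 3 against mock, where 1.76% and 2.18% of all genes rose. The medians were 0.15 and 0.24. Vector cells themselves had a median of 0.10 against mock in this role. Of the 10 differences of vector from mock 9 lay above 0, where 51.2% of all genes did. The calls were LYAR, NOLC1 and NCL, and the snoRNP proteins given next were not called. The U3 snoRNP protein RRP9 differed by 0.21 from vector and 0.37 from mock (limma, adjusted p = 0.0538 against mock), and all its YAP-S127A arrays lay above all controls. Of the H/ACA proteins, NHP2 differed by 0.18 and 0.27, GAR1 by 0.10 and 0.20 and the pseudouridine synthase DKC1 by 0.06 and 0.15. The box C/D proteins were less uniform: NOP58 differed by 0.14 and 0.21, the methyltransferase FBL by 0.09 and −0.12, and NOP56 by −0.05 and 0.20. The probes of NOP56 disagreed, since the dimmer ones differed by 0.24 and 0.61 from vector where the brightest differed by −0.05. In all, 13 tested members had several probes above the filter, and the probes shared 1 sign in 10 of these against vector and in 7 against mock.

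Of 10 tested 60S assembly factors 0 were called in either YAP-S127A comparison, where 3.45% and 4.25% of all genes changed. On the brightest probes all 10 differences from vector lay above 0, where 48.6% of all genes did. After scaling to equal medians 8 did, where 40.5% of all genes did. The dimmer probes of NOP2 differed by −0.03, 0.02 and −0.15 from vector. An unadjusted p of 0.05 against vector was passed by 2 of the 10 (20%), where 15.6% of all genes passed it. The medians were 0.15 against vector and 0.17 against mock. On the brightest probes the highest against mock were NOP16 (0.35, limma adjusted p = 0.06), NIP7 (0.32) and BOP1 (0.29). On its dimmer probe NOP16 differed by 0.13 from mock and 0.11 from vector, and the groups overlapped. BOP1 is a scaffold of the complex that processes the large-subunit RNA. Its partners in that complex are WDR12 and PES1. WDR12 differed by 0.09 from vector and 0.11 from mock and PES1 by 0.05 and −0.18. The probes of WDR12 disagreed, since the dimmer one differed by −0.12 from vector and −0.06 from mock. For BOP1 the 95% interval against vector ran from 0.04 to 0.51, and for PES1 from −0.19 to 0.28. WDR74, which acts in nuclear 60S maturation, had the lowest difference from mock of all members, at −0.18, and 0.07 from vector. The remaining factors, MRTO4, RRS1 and PPAN, differed by 0.15 to 0.23 from vector.

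Of the 9 tested factors of the 40S subunit, 0 rose against vector and 2 against mock, where 1.76% and 2.18% of all genes rose. BYSL and RRP12 are given above, and the RNA helicases DDX21 and DDX10 differed by 0.17 and 0.18 from vector. The large processome scaffolds HEATR1, UTP20 and WDR3, the late GTPase-like factor TSR1 and the endonuclease NOB1, which makes the last cut in the small-subunit RNA, differed by 0.01 to 0.11 from vector and by −0.13 to 0.07 from mock. UTP20 and WDR3 had means of 6.25 log2 units, next to the filter at 6.18. The 9 together had medians of 0.11 against vector and 0.07 against mock.

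Against vector the 5 RNA polymerase I genes lay on the other side of 0 from most members, and against mock 1 of the 5 lay above 0. Of these 5 genes 0 were called by limma and 0 passed an unadjusted p of 0.05 in either direction. All 5 differences from vector were below 0, from −0.10 to −0.04, where 48.6% of all genes lay above 0. Each of these differences was smaller than its SE. The largest subunit, POLR1A, stood at 6.60, 6.45 and 6.45 in YAP-S127A cells, against 6.67, 6.59 and 6.46 in vector cells and 6.44, 6.50 and 6.61 in mock cells. Its groups overlapped, and it is a dim probe. POLR1B, the other catalytic subunit, stood at 7.15, 7.14 and 7.02 in YAP-S127A cells, against 7.10, 7.29 and 7.22 in vector cells and 7.34, 7.51 and 6.95 in mock cells. POLR1D, a subunit shared with RNA polymerase III, stood at 12.83, 12.77 and 12.79 in YAP-S127A cells, against 12.82, 12.85 and 12.91 in vector cells and 13.04, 12.89 and 12.86 in mock cells. The groups overlapped for both genes. The dimmer probes of POLR1B and POLR1D differed by 0.09 and 0.08 from mock where the brightest differed by −0.17 and −0.13, and by −0.04 and −0.03 from vector. POLR1C differed by −0.05 from vector and 0.06 from mock (−0.08 and −0.03 on its dimmer probe) and the initiation factor RRN3 by −0.04 and −0.14. The highest upper bound of the 95% intervals against vector was 0.18, that of RRN3. A rise as large as that of LYAR, the member with the highest difference, thus lay outside all 5. The median member difference from vector, 0.10, lay inside all 5. Whether the roles differ was not tested.

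**Figure D2:**
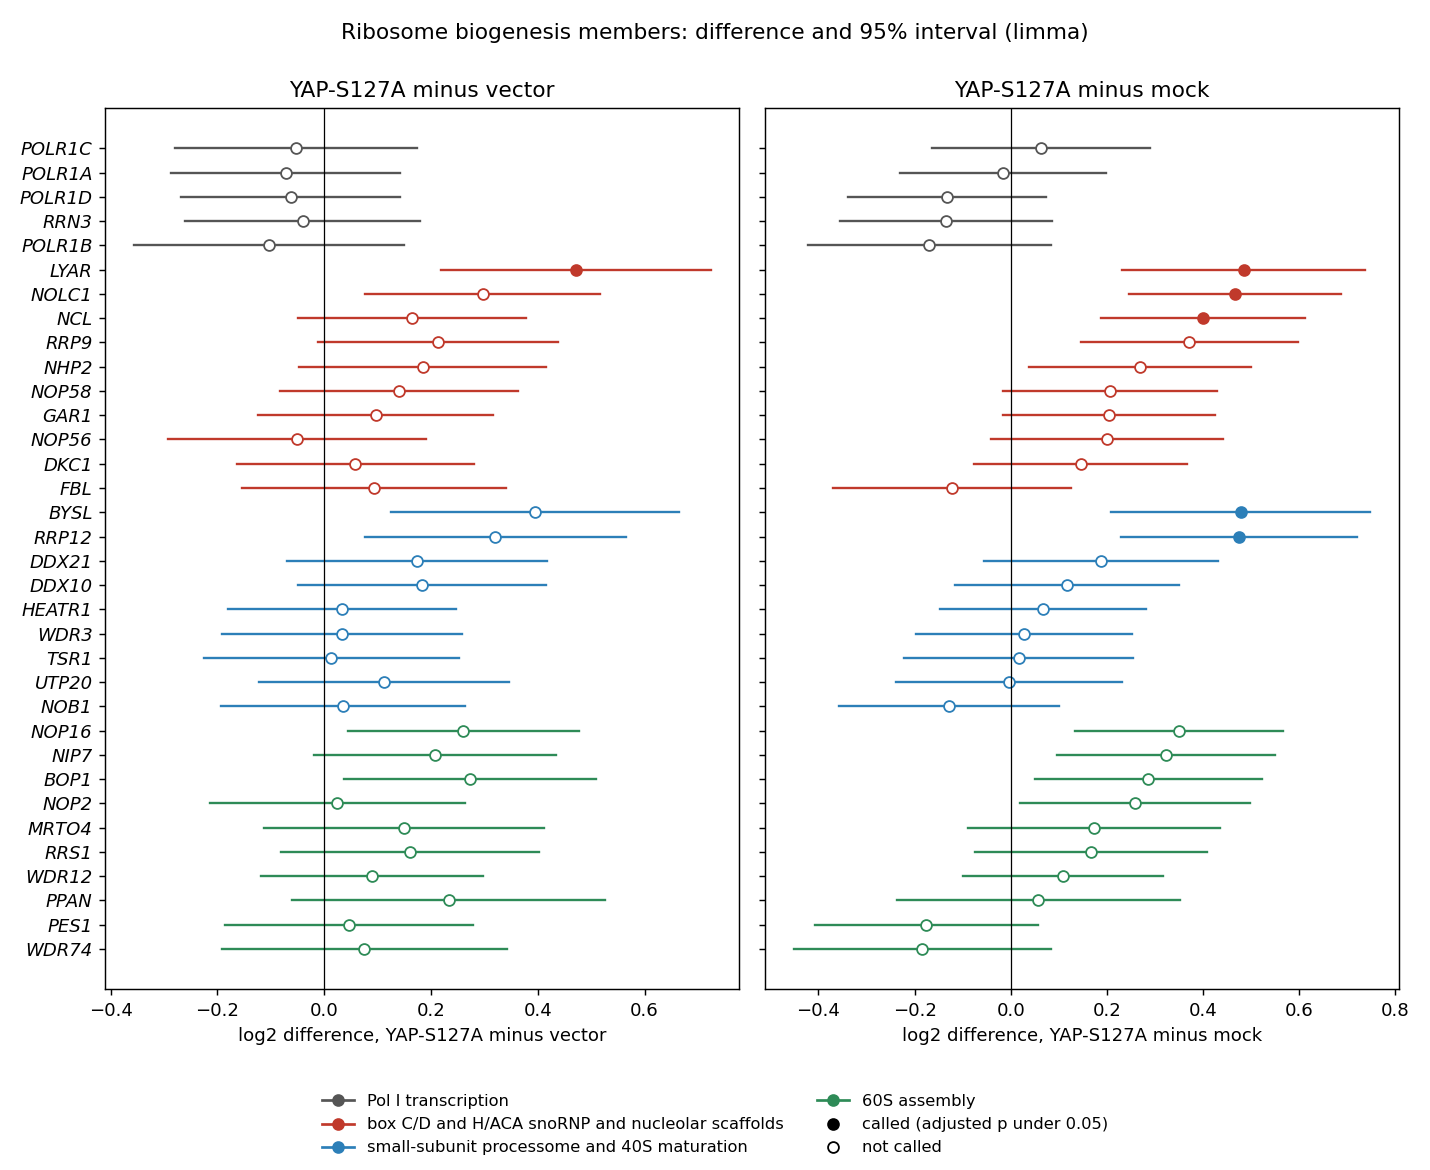
Log2 difference of YAP-S127A from vector (left) and from mock (right) for the 34 tested members, ordered by role and by the difference from mock, with 95% intervals of the limma fit. Filled points mark an adjusted p under 0.05. The RNA polymerase I genes lie below 0 against vector. LYAR, NOLC1, BYSL and RRP12, and also BOP1 and NOP16, which were not called, have intervals above 0 in both panels. Each gene is shown by its brightest probe only.

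Vector cells were set against mock cells to see what the vector alone went with. Of 34 members 0 were called in either direction, where 0.0124% of all genes tested were called, and 2 were higher and 0 lower at an unadjusted p under 0.05 (limma), which 5.63% of all genes passed. These were NOP56, 0.25 above mock, and NCL, 0.24 above mock. The median member difference was 0.02. NOP56 had levels of 11.50, 11.37 and 11.07 in YAP-S127A cells, 11.32, 11.46 and 11.32 in vector cells and 11.13, 11.24 and 10.97 in mock cells. NOP2, a methyltransferase of the large-subunit RNA, had 11.65, 11.72 and 11.27 in YAP-S127A cells, 11.43, 11.56 and 11.58 in vector cells and 11.37, 11.26 and 11.23 in mock cells. For both genes the YAP-S127A and vector arrays overlapped and the mock mean was the lowest. For NOP56 this is the brightest probe: its dimmer probes differed by 0.05 and −0.16 between vector and mock, and the mean of its probes by 0.05. PES1 ran the other way, with 8.14, 7.98 and 7.88 in YAP-S127A cells, 7.88, 8.01 and 7.97 in vector cells and 8.27, 8.31 and 7.95 in mock cells, as did WDR74, with 8.12, 7.98 and 8.29, then 7.84, 8.10 and 8.23, and then 8.58, 8.07 and 8.30 in the same order of groups. All 3 groups overlapped for PES1 and WDR74.

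The YAP-S127A arrays differed among themselves. Relative to the mean of the 6 control arrays, the median member stood 0.16 higher on YAP-S127A array 1, 0.15 higher on array 2 and 0.05 higher on array 3 (−0.08 after scaling to equal medians, where the median of all genes was also −0.08), against 0.06, 0.03 and −0.02 on the vector arrays and −0.07, 0.02 and −0.03 on the mock arrays. Array 3 thus lay below vector array 1. The medians of all genes tested lay between −0.02 and 0.01 on the 9 arrays. In 24 of 34 members array 3 was the lowest YAP-S127A array, which held for 37.4% of all genes. On array 1, 19 members lay above all 6 controls, on array 2 16 and on array 3 9, where 18.2%, 19.4% and 17.8% of all genes did. A principal component of the 34 members, with 51.7% of their variance, scored the YAP-S127A arrays 0.99, 1.11 and 0.26, the vector arrays 0.15, −0.17 and −0.49 and the mock arrays −1.19, −0.33 and −0.32. On it YAP-S127A array 3 stood next to vector array 1, and mock array 1 stood farthest from the YAP-S127A arrays.

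The members that dropped most on array 3, against the mean of arrays 1 and 2, were NOP2 (−0.42), NOP56 (−0.37) and RRP12 (−0.35), whose levels are given above. On the brightest probes NOP2 and NOP56 lay lower on array 3 than on any vector array. On both dimmer probes of NOP56 array 3 (9.84 and 9.78) lay above every vector array. On a dimmer probe of NOP2 array 3 (8.99) lay above vector array 3 (8.93). On its other dimmer probes array 3 lay below every vector array. NCL (0.03) and NHP2 (0.19) were not lower on array 3, and LYAR, NOLC1 and BYSL, which were, still lay above all controls there. Within groups, the mean pairwise correlation of the members' deviations from the group means, over 9 arrays, was 0.12, against 0.06 for 68 ribosomal protein genes and 0.00 for all genes tested. The points of these correlations share the array and its labelled RNA. YAP-S127A array 3 was also the dimmest array before normalization, and the part of this in its lower members was not tested.

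**Figure D3:**
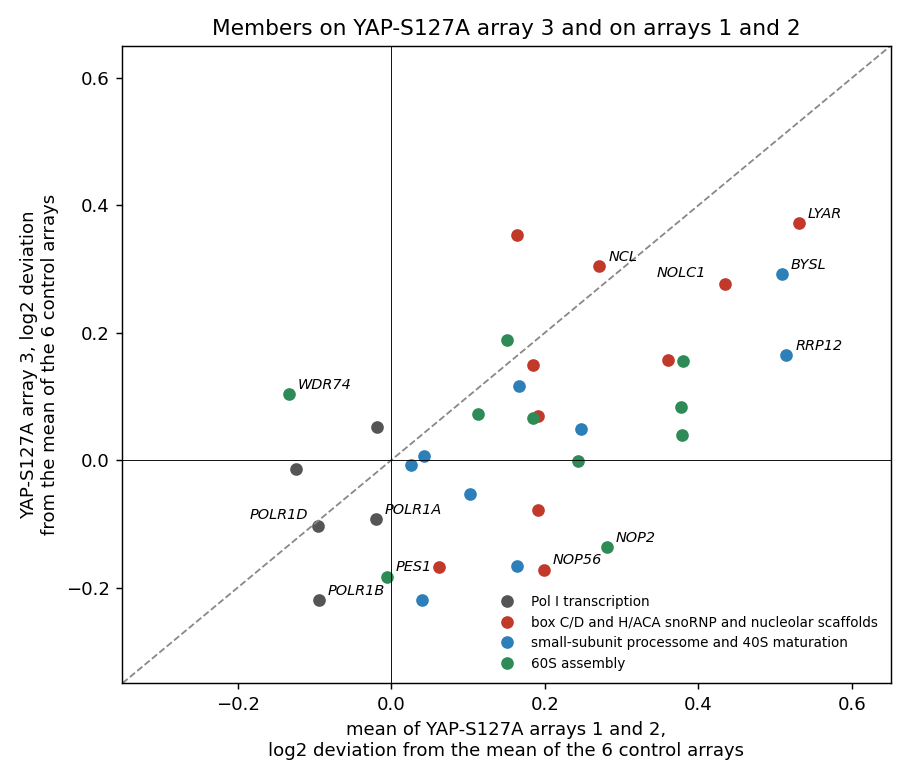
Log2 deviation of the 34 members from the mean of the 6 control arrays, on YAP-S127A array 3 (vertical) and as the mean of YAP-S127A arrays 1 and 2 (horizontal), coloured by role. Most members lie below the dashed line of equal deviation, with NOP2 and NOP56 under 0 on array 3. Each gene is shown by its brightest probe only.

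Further genes of the pathway, named by role in the same way, also had medians above 0. Of 45 further processome and 40S factors 1 (2.22%) rose and 0 fell against each control, where 1.76% of all genes rose against vector and 2.18% against mock. The medians were 0.09 against vector and 0.12 against mock. The gene called was RRP7A, a processome protein, which had levels of 9.57, 9.73 and 9.52 in YAP-S127A cells, against 9.16, 9.12 and 9.05 in vector cells and 8.74, 9.28 and 9.21 in mock cells. It rose by 0.50 ± 0.12 and 0.53 ± 0.12 (limma, adjusted p = 0.0227 and 0.0136), and all YAP-S127A arrays lay above the controls. Of 48 further 60S factors 3 (6.25%) rose against vector and 4 (8.33%) against mock, where 1.76% and 2.18% of all genes rose. In this list 0 fell, and the medians were 0.08 and 0.11. RPF1, a processing factor of the large subunit, rose by 0.47 and 0.48 (adjusted p = 0.0237 and 0.0203). SBDS, which acts with a GTPase to free new 60S subunits of EIF6, rose by 0.46 and 0.43 (adjusted p = 0.0196 and 0.0304). EIF6 itself, the factor that keeps 60S from joining 40S, rose by 0.37 against vector (adjusted p = 0.0356) and differed by 0.28 from mock (adjusted p = 0.112). PELP1 and RRP15 rose against mock by 0.52 and 0.41 (adjusted p = 0.00699 and 0.0196) and differed by 0.35 and 0.32 from vector.

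Against mock the call of RRP7A ended without YAP-S127A array 2 or mock array 1 and that of SBDS without YAP-S127A array 1 or 2 or mock array 3. That of RPF1 ended without YAP-S127A array 2 or 3 or mock array 1 or 3, and that of RRP15 without YAP-S127A array 1 or 2 or mock array 1. Against vector those of RRP7A, SBDS, RPF1 and EIF6 ended without YAP-S127A array 2 or vector array 3, among others. With the background offset of 16 and with equal medians the calls of RRP7A, RPF1, SBDS, EIF6, PELP1 and RRP15 all ended (adjusted p between 0.0605, for PELP1, and 0.255, for EIF6), and EIF6 differed by 0.23 from vector with its probes averaged (adjusted p = 0.194).

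Of 13 RNA exosome genes, whose products trim precursor RNA, 0 rose against vector and 1 (7.69%) against mock, where 1.76% and 2.18% of all genes rose. This was EXOSC9, by 0.41 (limma, adjusted p = 0.0209). Its adjusted p passed 0.05 without YAP-S127A array 1 or 2 or mock array 1, with the offset of 16, with equal medians and with probes averaged. The 13 further snoRNP proteins and assembly factors held 0 calls in either YAP-S127A comparison, with 0 past an unadjusted p of 0.05 against vector and 2 against mock, and medians of 0.06 and 0.01 (−0.01 and −0.09 after scaling to equal medians). The 18 further RNA polymerase I genes also held 0 calls, with 6 (1 of them lower) and 3 (all higher) past the unadjusted p of 0.05 that 15.6% and 17.0% of all genes passed, and with a median of 0.13 against each control. Among them the dedicated subunits POLR1E and POLR1F differed by 0.17 and 0.22 from vector, and the promoter-binding factor UBTF by 0.06. Whether any of these lists differs from another was not tested.

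The proteins of the finished ribosome were centred near 0. Of 68 cytosolic ribosomal protein genes 0 were called against either control (limma), 2 against vector (2.94%) and 3 against mock (4.41%) passed an unadjusted p of 0.05, where 15.6% and 17.0% of all genes did, and the medians were −0.01 and 0.00 (−0.09 and −0.11 after scaling to equal medians, where those of all genes were −0.04 and −0.03). Of these 68, 29 (42.6%) lay above 0 against vector and 32 (47.1%) against mock, where 48.6% and 49.4% of all genes did. Of the 34 members 28 (82.4%) and 25 (73.5%) did. After scaling to equal medians 18 and 10 of the 68 did, and 23 and 22 of the 34 members, where 40.5% and 41.4% of all genes did. The differences of the ribosomal protein genes ran from −0.24 to 0.31 against vector. On the YAP-S127A arrays their median deviations from the control mean were 0.01, −0.05 and 0.01, so array 3 was not the lowest of the 3. After scaling to equal medians they were −0.02, −0.09 and −0.16, with array 3 the lowest, where the median of all genes on array 3 was −0.08. Only 4 of 58 of them with a promoter in the table (6.9%) held CACGTG. Many ribosomal protein genes have processed pseudogenes with like sequence, and the specificity of their probes was not examined.

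**Figure D4:**
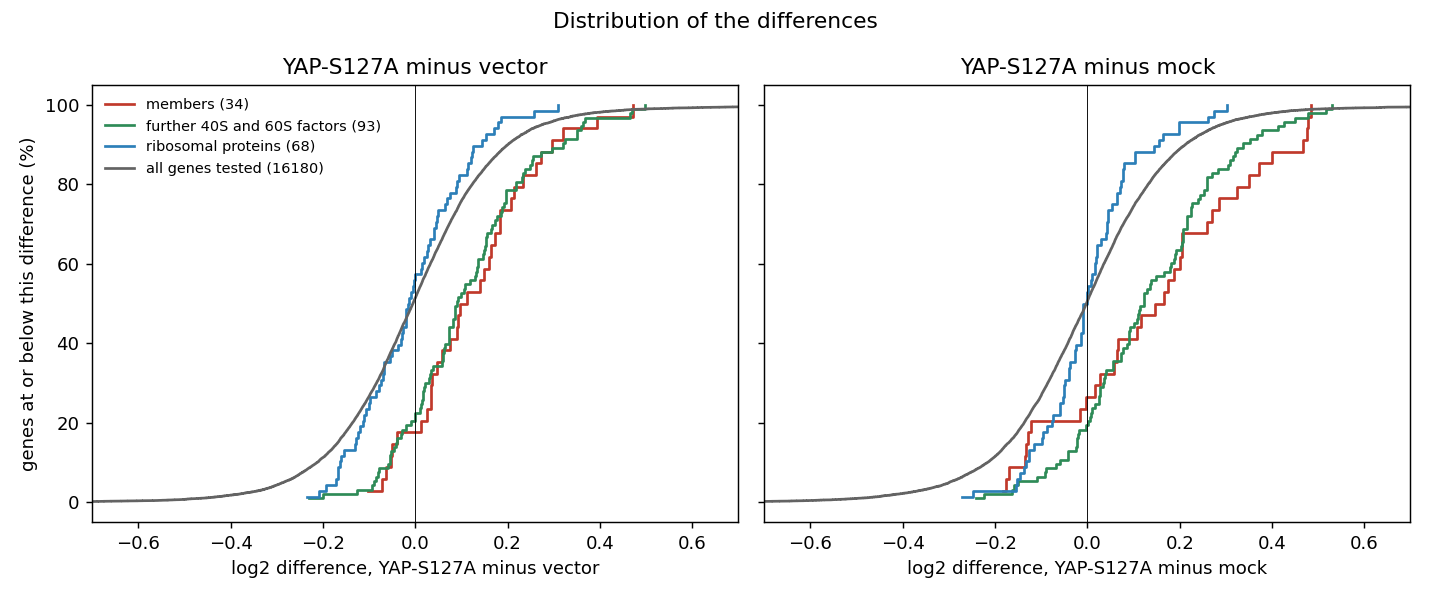
Cumulative share (%) of genes at or below each log2 difference of YAP-S127A from vector (left) and from mock (right), for the 34 members, 93 further 40S and 60S factors, 68 ribosomal protein genes and all 16180 genes tested. The curves of members and further factors lie to the right of all genes, and that of the ribosomal proteins lies along it around 0.

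**Figure D5:**
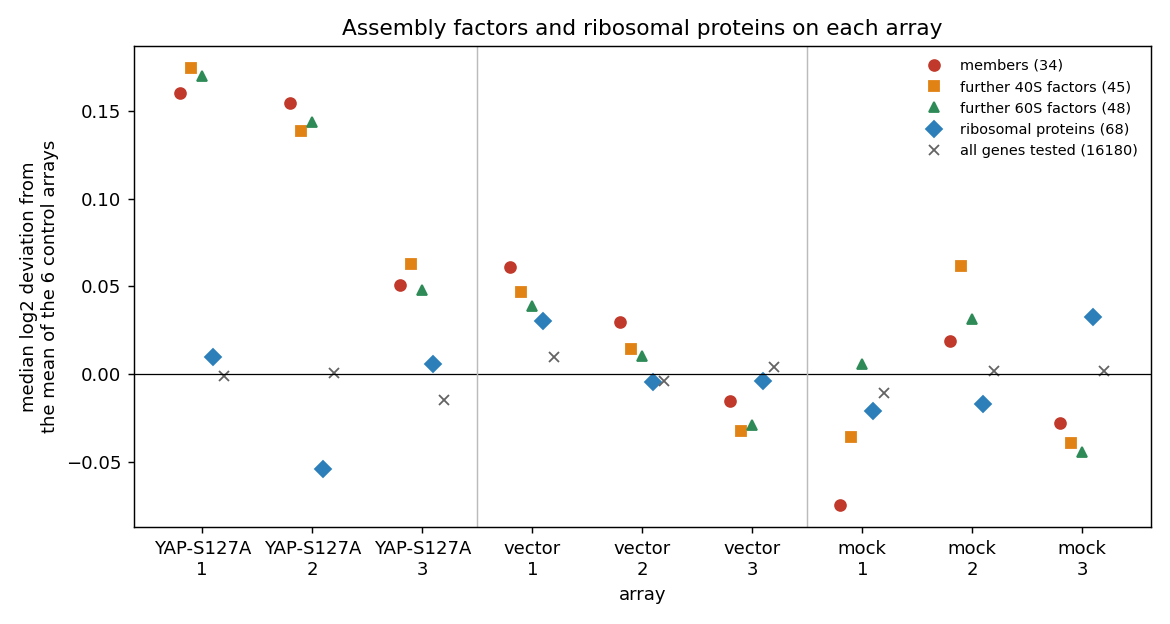
Median log2 deviation from the mean of the 6 control arrays, on each array, for members, further 40S factors, further 60S factors, ribosomal proteins and all genes tested. The members reach 0.16, 0.15 and 0.05 on the YAP-S127A arrays, and ribosomal proteins stay between −0.05 and 0.03 on all 9.

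MYC itself was higher in YAP-S127A cells. Its levels on the brightest probe were 9.71, 9.60 and 9.21 in YAP-S127A cells, against 8.91, 8.99 and 8.92 in vector cells and 8.93, 9.02 and 8.68 in mock cells. There was no overlap, and the lowest YAP-S127A value was again on array 3. The dimmer probe had 9.39, 9.55 and 9.43 in YAP-S127A cells, with array 1 the lowest. MYC rose by 0.57 ± 0.12 against vector (limma, adjusted p = 0.00801) and 0.63 ± 0.12 against mock (adjusted p = 0.00325), and its dimmer probe differed by 0.78 and 1.06. Without YAP-S127A array 1 or 2 the call against vector ended (adjusted p = 0.0765 and 0.0613), as it did with the offset of 16 (0.0748) and with equal medians (0.0745). SRM, the spermidine synthase of polyamine synthesis, had 9.54, 10.00 and 9.55 in YAP-S127A cells, against 8.95, 8.84 and 8.90 in vector cells and 8.61, 9.23 and 8.94 in mock cells, also with no overlap. ODC1, the enzyme that starts polyamine synthesis, rose by 0.45 against mock (adjusted p = 0.0202) and differed by 0.31 from vector. MXI1, which competes with MYC for its partner MAX, fell by 0.51 against mock (adjusted p = 0.0251) and differed by −0.26 from vector. With its probes averaged it differed by −0.17 from mock (adjusted p = 0.396) and by −0.01 from vector. The calls of ODC1 and MXI1 each ended without YAP-S127A array 1 or 2 or mock array 1 and with the offset of 16, and that of ODC1 also with equal medians. MAX differed by 0.08 from vector and 0.26 from mock and did not pass.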

How the data were processed

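The deposited signal table held intensity values for 47231 probes on a linear scale, and the deposited series matrix held log2 values with the same distribution on all 9 arrays (median 6.92) and the same probe order as the signals; how the authors normalized them is not stated. The submitters' processing notes name BeadStudio without a version. Signals were background-corrected (normexp of limma 3.58.1 in R 4.3.3, offset 50), log2 transformed, then normalized to equal quantiles. Probes with a mean above the lower quartile (6.18) were kept, which left 35423. A platform table gave 30113 probes 1 gene symbol, 8 several and 17110 none, and symbols were updated by gene ID for 30074 of them from the RefSeq table of GRCh38.p14. The brightest probe stood for each of 16180 genes.

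A single limma fit took all 9 arrays, each group having its own mean (6 residual and 16.4 prior degrees of freedom). Calls needed an adjusted p (Benjamini-Hochberg, over all genes tested) under 0.05. The script was tested on simulated data. No set test was run. The number of arrays limits the precision.

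The members and lists were chosen with earlier results of these data known. Values on each array are given for members called in any comparison, the 3 highest and 3 lowest in each YAP-S127A comparison, and the 3 lowest on YAP-S127A array 3. Of the other lists, up to 3 genes with the lowest adjusted p per list and YAP-S127A comparison could be named, with MYC and SRM. MXI1, POLR1E, POLR1F, UBTF and MAX fall outside this rule and were chosen after their values were seen. Promoters were printed for 4 members, first those called and then the highest against mock, holding CACGTG.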

Additional observations from a re-analysis of the deposited data

How the results depend on the processing

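Most members differed by about the size of their error, so the calls moved with the settings while the median differences from vector and mock kept their direction. Against vector the count of called members was 1. It was 0 with a normexp offset of 16, after scaling to equal medians and when the probes of each gene were averaged, and 2 (LYAR and BYSL) with only the arrays of the groups compared and with array weights. The count against both controls, 1, took the same values under these settings. Against mock the count was 5, and it was 0 with the offset of 16 and 0 after scaling to equal medians. Leaving out 1 array gave 0 to 2 members against vector, 0 to 1 against both controls and 0 to 7 against mock. The median difference from mock, 0.16, was 0.0854 after scaling to equal medians, and that of YAP-S127A array 3 was −0.0815 in place of 0.05. That scaling put the median of all genes at −0.03 against mock and at −0.08 on this array, and ribosomal proteins at −0.09 against vector and −0.11 against mock. The further snoRNP list had −0.01 against vector and −0.09 against mock under it, in place of 0.06 and 0.01. No result named here was called in the opposite direction under any alternative run.

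The labels do not say whether the replicate numbers pair the samples, and so few arrays per group cannot decide it. The correlations of same-numbered arrays between groups ran from −0.15 to 0.10, and those of differently numbered arrays from −0.09 to 0.13. Same-numbered arrays had 0.04, 0.10 and 0.05 between YAP-S127A and mock, where differently numbered ones ran from −0.07 to 0.01. Same-numbered arrays had 0.01, −0.01 and 0.07 between YAP-S127A and vector, and −0.15, 0.03 and −0.06 between vector and mock. With the replicate block 1 member was called against vector and 4 against mock, BYSL being lost (adjusted p = 0.0504). MYC and SRM stayed called against mock in all alternatives run (adjusted p up to 0.0476 and 0.0365), and SRM against vector too (up to 0.0318).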
